A study of Mus musculus with 2 samples.

Results

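The transcription factors Pou2f3, Gfi1b, Sox4, Sox9, Sox8 and Runx1 were examined in small intestinal tuft cells with and without Spib. They are 6 of the 17134 genes in the deposited count table, chosen by symbol as factors of tuft identity and of epithelial lineage, and all 6 passed the filter on low counts. The cells were sorted from untreated mice as positive for EpCAM and Siglec-F, and each genotype gave 1 library. The WT library came from mice with the genotype Spib+Villin-cre and the Spib_KO library from mice with Spibfl/flVillin-cre. Both therefore carry Villin-cre, a Cre recombinase driven by the Villin promoter in the intestinal epithelium, and only the second has floxed Spib. The labels do not give the age, strain or number of mice, or whether animals were pooled. With 1 library per genotype there was no replicate check, no test between genotypes and no p-value. Every difference below describes these libraries.

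Tuft cells are sparse sensory cells of the gut lining that detect luminal parasites and microbial products and start type 2 immune responses. Their identity depends on Pou2f3, a POU domain factor that binds the octamer motif and works with OCA-T coactivators. Gfi1b is a zinc finger repressor that recruits the LSD1-CoREST complex and is otherwise known from erythroid cells and megakaryocytes. Sox9 and Sox4 are SOX factors with a DNA-binding HMG box, the first known from crypt progenitors and Paneth cells and the second from secretory progenitors. Sox8, a close relative of Sox9, is known in the gut from M cells, and Runx1 is a core-binding factor best known from blood stem cells. Spib, the deleted gene, encodes an ETS family factor.

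The targeted gene separated the libraries. Spib had 6266 reads in WT and 48 in Spib_KO, for a log2 ratio of Spib_KO over WT of -6.95 (95% counting interval -7.40 to -6.55). The libraries held 17925421 and 17228665 reads assigned to genes. Of 10707 measured genes, meaning those with a normalised read count (CPM, reads scaled to a common library size) of 5 or more together with 30 or more reads in either library, the median log2 ratio was 0.01. A gene was called higher or lower when the whole counting interval of its ratio lay beyond a 2-fold difference. By this rule 2.33% of measured genes were higher and 2.18% lower in Spib_KO.

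Among the 6 factors Sox8 was the one called, and the other 5 stayed inside the 2-fold bound. The list of factors known from tuft cells used below holds these 5 and not Sox8. Of the 6 members 1 was lower, 0 were higher and 5 were neither, beside the 2.18% and 2.33% of all measured genes called in each direction. The members' median log2 ratio was 0.23, against 0.01 over all measured genes. Pou2f3, Gfi1b, Sox9 and Sox4 had values above 0 and Runx1 and Sox8 values below 0.

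The upstream windows of the members at the extremes of this range are shown because Spi-B, like other ETS factors, recognises a GGAA core. Each is the 250 bases before the gene's start from RefSeq (GRCm38.p6), written 5′ to 3′ on the gene's strand, with GGAA and its reverse complement TTCC in capitals. Sox8 (chr17:25570687-25570936, minus strand), the lower member, had 0 matches and so shows no capitals. Sox4 (chr13:28953700-28953949, minus strand), the member with the highest ratio, had 6 matches.
Sox8: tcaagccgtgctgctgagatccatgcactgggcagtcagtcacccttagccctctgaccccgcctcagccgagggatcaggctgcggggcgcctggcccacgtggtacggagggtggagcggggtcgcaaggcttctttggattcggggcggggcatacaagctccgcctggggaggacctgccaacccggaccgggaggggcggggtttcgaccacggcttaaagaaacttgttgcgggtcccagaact
Sox4: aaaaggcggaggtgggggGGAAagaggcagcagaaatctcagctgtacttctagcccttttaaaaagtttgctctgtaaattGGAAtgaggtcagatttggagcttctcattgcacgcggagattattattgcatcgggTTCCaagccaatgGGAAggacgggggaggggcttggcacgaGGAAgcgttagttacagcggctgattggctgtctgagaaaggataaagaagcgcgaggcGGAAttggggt

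Of 32851 upstream windows of this length, 93.4% held at least 1 GGAA on either strand, with a median of 3, and 8.69% held 6 or more. The Gfi1b window had 3 matches, and the windows at the distal and proximal starts of Runx1 had 4 and 6. Windows of Pou2f3 and Sox9 were not analysed here. A longer Spi-B type motif, GAGGAAGT on either strand, which contains GGAA, was in 2.44% of all windows and in none of the 5 member windows searched. The octamer ATGCAAAT was in 1.60% of all windows and in none of those of members. A match in these letters is a description and not a binding site, and its absence covers this window only.

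Pou2f3 (gene 18988, chromosome 9, 43123927 to 43205755, minus strand) was slightly higher in the Spib_KO library by value and far inside the 2-fold bound. Its WT count of 4606 reads corresponds to 256 CPM (95% Poisson interval 249 to 263) and its Spib_KO count of 4926 to 287 CPM (279 to 295). The single-library intervals did not overlap, but these cover counting error only and not the variation between mice. The log2 ratio was 0.17 (0.11 to 0.22). Pou2f3 made up 95.6% of the summed TPM (the deposited level per length) of the 12 POU genes in the table in WT and 94.98% in Spib_KO.

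The other POU genes were scarce. Pou2f1, the broadly expressed octamer factor, was the only other measured one. It had 22.6 and 16.1 CPM, for a log2 ratio of -0.49 (-0.71 to -0.26), which was not called. Pou2f2, an octamer factor of B cells, was at 9 reads in each library.

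The OCA-T coactivators that Pou2f3 works with had higher values in Spib_KO than in WT, and 1 of the pair was called. They were on the list under the symbols Pou2af2 and Pou2af3, which the table does not use. Here 1810046K07Rik is taken as the older symbol of Pou2af2 (OCA-T1) and Colca2 as that of Pou2af3 (OCA-T2). The reference tables used here do not pair these names, every statement on OCA-T rests on this pairing, and it was made after the values had been seen. Colca2 had 258 reads in WT and 663 in Spib_KO, or 14.3 and 38.6 CPM, a 2.69-fold higher level with a log2 ratio of 1.43 (1.22 to 1.64), and was called higher. 1810046K07Rik had 3525 and 6257 reads, or 196 and 365 CPM, and its log2 ratio of 0.90 (0.84 to 0.96) lay just inside the bound, so it was not called. Pou2af1, the B cell coactivator next to them on chromosome 9, had 9 and 2 reads.

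Per length, 1810046K07Rik was above Pou2f3 in both libraries, with 228 TPM against 128 TPM in WT and 416 TPM against 142 TPM in Spib_KO. The pair lie side by side, Colca2 at 51270258 to 51278565 and 1810046K07Rik at 51289686 to 51328924, on the same strand. The nearest measured genes outside the pair, Gm32742 and Fdx1, had log2 ratios of -0.38 and 0.05. Colca2 shares exonic sequence with the antisense gene 2010007H06Rik, and these reads do not keep strand, so reads of the pair cannot be told apart.

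One upstream window of 1810046K07Rik (chr9:51328919-51329168, minus strand) is shown because it holds the octamer, the motif that Pou2f3 binds. It held 2 octamers, in capitals, on opposite strands with 23 bases between them. They start 86 and 55 bases before the window's end, which adjoins 1 annotated start of the gene; the last 6 bases of the window lie inside the gene's coordinates given above. Of 32851 windows 32 (0.0974%) held 2 or more. This window was chosen after its letters were seen.
1810046K07Rik: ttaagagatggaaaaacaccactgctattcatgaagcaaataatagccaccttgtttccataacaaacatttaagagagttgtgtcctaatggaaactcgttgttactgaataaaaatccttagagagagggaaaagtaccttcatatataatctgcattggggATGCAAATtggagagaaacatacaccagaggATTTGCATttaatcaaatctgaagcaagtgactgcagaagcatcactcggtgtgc

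Gfi1b (gene 14582, chromosome 2, 28609450 to 28621982, minus strand) was counted with 2700 reads in WT and 3146 in Spib_KO. These are 150.0 CPM (144 to 156) and 183 CPM (177 to 190). The Spib_KO value was higher with a log2 ratio of 0.29 (0.21 to 0.36), well inside the 2-fold bound. Its paralogue Gfi1, a factor of secretory and immune cells, was at 8 WT reads and 0 Spib_KO reads, so that Gfi1b made up 99.8% of the summed TPM of the pair in WT.

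Genes of the corepressor that Gfi1b recruits mostly had values above 0, with none past the bound. Of 13 measured genes on the list of GFI factors and the LSD1-CoREST complex, 0 were higher and 0 lower; at the background shares of 2.33% and 2.18%, a list of this size can hold no call without standing apart. The 13 include Gfi1b itself. Their median log2 ratio was 0.29, above the upper quartile of 0.28 over all measured genes, whose median was 0.01. Of the 13, 11 lay above 0. Kdm1a, which encodes the demethylase LSD1, had 21.3 and 27.0 CPM, for a log2 ratio of 0.35 (0.15 to 0.54). The CoREST scaffold gene Rcor1 had the highest value of the list, 0.65 (0.48 to 0.82), a 1.56-fold higher level with 26.3 CPM in WT and 41.1 CPM in Spib_KO. Hmg20b, an HMG protein of the complex, had 76.6 and 98.8 CPM, for a log2 ratio of 0.37. The histone deacetylase gene Hdac1, the most abundant member of the list, had 218 and 233 CPM, for a log2 ratio of 0.10. Ajuba, a LIM domain protein gene, had the lowest value, -0.62 (-0.95 to -0.30).

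**Figure D1:**
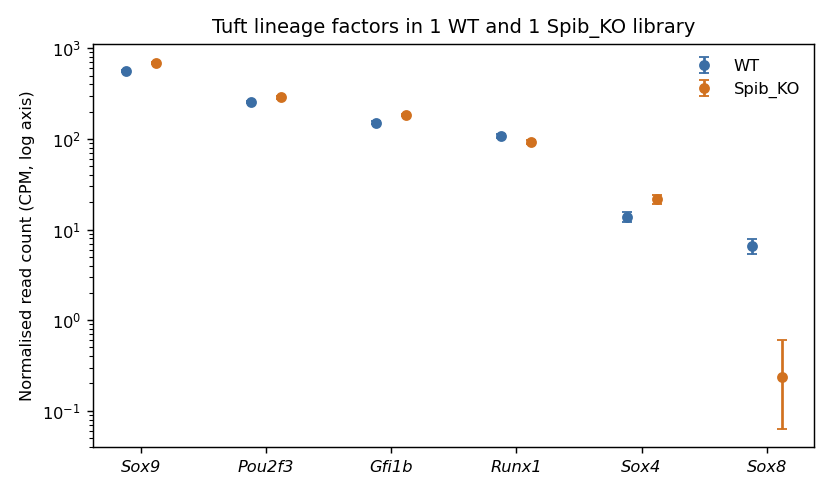
Normalised read count (CPM, log axis) of the 6 factors in the WT and Spib_KO libraries, with 95% Poisson intervals of counting error. For each of the first 5 genes the WT and Spib_KO values differ by less than 2-fold, while Sox8 drops from 6.56 to 0.23 CPM.

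Sox9 (gene 20682, chromosome 11, 112782210 to 112787757, plus strand) was the most abundant member in both libraries. Its 10056 WT reads amount to 559 CPM (548 to 570) and its 11813 Spib_KO reads to 688 CPM (676 to 701). The Spib_KO value was higher with a log2 ratio of 0.30 (0.26 to 0.34), which was not called. Sox9 made up 91.4% of the summed TPM of the 15 SOX genes in the table in WT and 92.2% in Spib_KO.

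Sox4 (gene 20677, chromosome 13, 28948919 to 28953699, minus strand), a gene of 1 exon, had the largest value above 0 among the members. Its 246 WT reads amount to 13.7 CPM (12.01 to 15.5) and its 369 Spib_KO reads to 21.5 CPM (19.4 to 23.8). The Spib_KO level was 1.57-fold the WT level, for a log2 ratio of 0.65 (0.42 to 0.89), which stayed inside the 2-fold bound. It shares exonic sequence with Gm26735 on the other strand, so reads of the pair cannot be told apart.

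Sox8 (gene 20681, chromosome 17, 25565893 to 25570686, minus strand) was close to absent in Spib_KO. Its 118 WT reads amount to 6.56 CPM (5.43 to 7.85) and its 4 Spib_KO reads to 0.23 CPM (0.064 to 0.60). The intervals lay far apart. The level was 25.2-fold lower, with a counting interval of 10.7-fold to 105-fold and a log2 ratio of -4.65 (-6.71 to -3.42). At 6.56 CPM in WT it lay only slightly above the minimum of 5 CPM, and it passed the filter only through the WT library. It shares exonic sequence with the antisense gene 2810468N07Rik, from which unstranded reads are not separated. In bulk libraries such as these, fewer cells with a transcript and less of it per cell cannot be told apart.

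The neighbours of Sox8 were also lower by value, with whole intervals below 0, but were not called and had smaller differences. For scale, the lower quartile of the log2 ratio over all measured genes was -0.26. Lmf1, a lipase maturation factor gene 8.49 kb away, had 77.1 and 61.5 CPM, for a log2 ratio of -0.33 (-0.44 to -0.21). Tpsg1, a tryptase gene and the nearest measured one on the other side, lay 191 kb away. It had 91 and 45 reads, for a log2 ratio of -0.94 (-1.50 to -0.42). At 5.06 CPM in WT and 2.62 CPM in Spib_KO, Tpsg1 passed the filter only through the WT library, so its direction was set in part by the filter.

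No SOX gene other than Sox8 was called. Of 15 family members with a row 5 were measured, 1 of them lower and 0 higher, beside 2.18% and 2.33% of all measured genes. The median log2 ratio of the 5 was 0.30. Sox6, a SOX factor without an activation domain, had 17.1 and 28.7 CPM, for a log2 ratio of 0.74 (0.54 to 0.95). Sox13, of the same subgroup, had 13.8 and 13.3 CPM, for a log2 ratio of -0.05. Sox10, the third relative of Sox8 and Sox9, had 1 read in WT and 0 in Spib_KO. In WT the family's TPM was shared out as 2.91% for Sox13, 1.92% for Sox4, 1.61% for Sox6 and 1.52% for Sox8. In Spib_KO the share of Sox8 was 0.042%.

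Since Sox8 is known from M cells, the M cell markers were set beside it. Of 6 measured M cell genes 0 were higher and 0 lower, beside 2.33% and 2.18% of all measured genes. So short a list can hold no call without standing apart. The 11 M cell genes in the table summed to 139 CPM in WT and 171 CPM in Spib_KO. The marker Gp2 was not analysed here. Tnfaip2 had 10 reads in WT and 0 in Spib_KO, and Tnfrsf11b had 1 and 0. The markers with most reads were Pglyrp1, which encodes a peptidoglycan recognition protein, and Marcksl1. Tnfrsf11a, the receptor RANK that starts M cell differentiation, had 165 and 321 reads, for a log2 ratio of 1.03 that was not called. Of the 6 measured, 3 lay above 0 and 3 below. Cxcl16 had a log2 ratio of -0.76 (-1.19 to -0.34) and Ccl9 of -0.62 (-1.10 to -0.16). Both passed the filter only through the WT library, so their direction was set in part by the filter.

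Markers of several other cell types differed between the libraries in the same direction as Sox8. Of 11 measured Paneth cell genes 9 were lower and 0 higher, beside 2.18% and 2.33% of all measured genes. Of the 11, 4 passed the filter only through the WT library, so the direction of these 4 was set in part by the filter. The Paneth cell genes summed to 2767 CPM in WT against 1065 CPM in Spib_KO. Of 8 measured goblet cell genes 4 were lower and 0 higher, with sums of 2259 and 1396 CPM. In the table were 11 genes of T cells and intraepithelial lymphocytes, of which 4 were measured, each only through the WT library, so that their direction was set in part by the filter. These 4 were lower, and the 11 summed to 56.1 and 6.47 CPM, with Cd3d at 0 reads in Spib_KO. Enteroendocrine genes had 5 lower and 1 higher among 8 measured, with Gcg, Tph1, Pyy, Ghrl and Scg3 at 0 reads in Spib_KO. Of the 8, 5 passed the filter only through the WT library and 1 only through the Spib_KO library. The direction of these calls was therefore set in part by the filter. The enteroendocrine sums of 547 and 576 CPM were mostly the hormone gene Sct, with 404 and 533 CPM. Without Sct the list summed to 143 and 42.9 CPM. Mast cell markers had 69 reads in WT and 3 in Spib_KO, with Mcpt1 at 59 and 0, and B cell and plasma cell markers had 105 and 41; none of these passed the filter. The part of these cells in the Sox8 value was not tested.

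**Figure D2:**
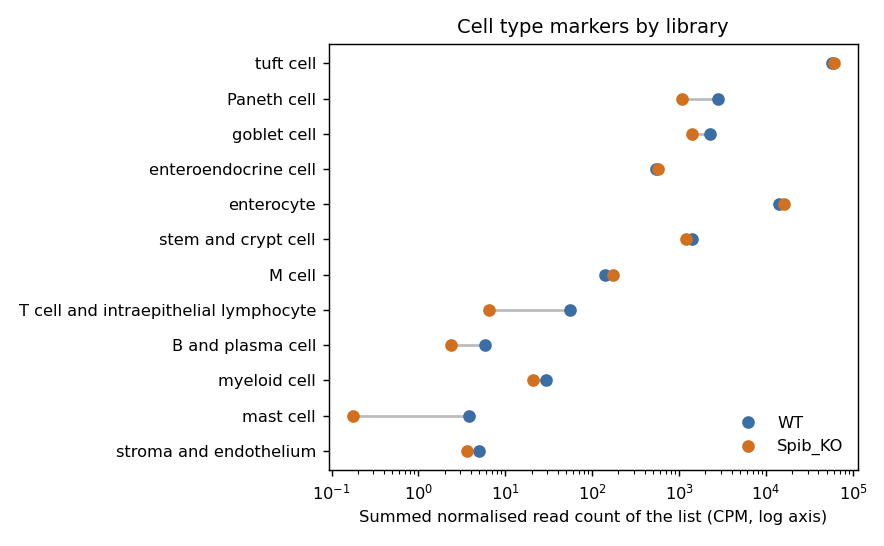
Summed normalised read count (CPM, log axis) of 12 cell type marker lists in the WT (blue) and Spib_KO (orange) libraries, joined by a grey line. The tuft cell sums nearly coincide, while the lists of Paneth cells, goblet cells and T cells are lower in Spib_KO.

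Tuft cell markers were abundant in both libraries. All 27 tuft cell markers were measured and summed to 56853 CPM in WT against 60253 CPM in Spib_KO. The keratin gene Krt18 has the largest part, and without it the sums were 29826.5 and 28330.3 CPM. Of the 27 markers 2 were lower, Ptpn6 and Plcb2, and 0 higher, beside 2.18% and 2.33% of all measured genes. The median log2 ratio was 0.09. Markers of stem and crypt cells, where Sox9 is also known, had 0 calls among 8 measured, with sums of 1409 and 1185 CPM. Without Olfm4, the most abundant of them, the sums were 476 and 478 CPM. Enterocyte markers had 0 calls among 9, of which 6 lay below 0, with a median log2 ratio of -0.43. Their sums of 14158 and 16120 CPM rest largely on Fabp1, a fatty acid binding protein gene with 6968 and 10611 CPM, and without it they were 7190 and 5509 CPM. Of the eosinophil markers other than Siglecf, the sort marker, none had more than 6 reads. Markers of stroma and endothelium had 90 and 62 reads in all and those of myeloid cells summed to 29.4 and 20.9 CPM. Of the myeloid genes Lyz2 was lower, having passed the filter only through the WT library, and Csf1r and C1qa had 0 reads in Spib_KO.

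Runx1 (gene 12394, chromosome 16, 92601466 to 92826074, minus strand) was slightly lower in Spib_KO by value. Its 1950 WT reads amount to 108 CPM (104 to 113) and its 1595 Spib_KO reads to 92.9 CPM (88.4 to 97.6). The log2 ratio was -0.22 (-0.32 to -0.12), which was not called. Runx1 shares exonic sequence with the antisense gene Gm26626. It made up 97.3% of the summed TPM of the 3 RUNX genes in both libraries, and Runx2 and Runx3 had 21 and 19 reads in WT.

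The partners of Runx1 went both ways without a call. Of 11 measured genes on this list, Runx1 included, 0 were higher and 0 lower, beside 2.33% and 2.18% of all measured genes. A list of this size can hold no call without standing apart. The median log2 ratio was 0.01. Cbfb, the subunit that stabilises RUNX factors on DNA, had 13.1 and 20.6 CPM, for a log2 ratio of 0.65 (0.41 to 0.90). Tle2 and Tle1, both Groucho-type corepressors, had the extreme values of 1.02 (0.63 to 1.43) and -1.09 (-1.39 to -0.81). The corepressor Cbfa2t2 had 33.6 and 53.7 CPM, for a log2 ratio of 0.68 (0.53 to 0.83), and its relative Cbfa2t3 12.1 and 7.05 CPM, a ratio of -0.78.

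Because Runx1 and Gfi1b are also blood cell factors, other haematopoietic factors were examined. Of 32 with a row 9 were measured, with 0 higher and 0 lower, beside 2.33% and 2.18% of all measured genes. The median log2 ratio of the 9 was -0.03. Among the 32, 7 had 0 reads in Spib_KO, Ets1 among them with 25 reads in WT, and none had 0 in WT. The whole table leaned the same way: of 17134 genes, 16104 had reads in WT and 15445 in Spib_KO. The median was -0.23 over all 32 without the filter. Several that define blood lineages were near 0: Gata1 had 1 read in WT and 0 in Spib_KO, Ikzf1 had 6 and 0, and Spi1, which encodes PU.1, had 18 and 1. The measured ones included Irf8, an interferon regulatory factor gene, with 93.9 and 81.6 CPM, for a log2 ratio of -0.20. Myb had 26.7 and 31.4 CPM, a ratio of 0.24, and Id2, the most abundant of the list, had 136 and 116 CPM, a ratio of -0.23.

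Among other factors known from tuft cells, Zfp710 was lower. Of 11 genes on the list measured under their listed symbols, 5 were members. Among the 11, 1 was lower and 0 higher, beside 2.18% and 2.33% of all measured genes. The median log2 ratio was 0.17. With the OCA-T pair counted under its older symbols, 13 were measured, 1 lower and 1 higher (Colca2), with a median of 0.29. The zinc finger gene Zfp710 had 3172 reads in WT and 1007 in Spib_KO, or 176 and 58.7 CPM. The log2 ratio was -1.59 (-1.69 to -1.48). An antisense gene, Gm44949, overlaps its exons. Jarid2, a component of Polycomb complexes, had the highest value of the 11, 0.82 (0.74 to 0.90), from 119 to 211 CPM. The homeobox genes Hmx2 and Hmx3 had log2 ratios of -0.20 and -0.13, Nfatc1 -0.23 and Ascl2, a factor of crypt stem cells, 0.45 (0.18 to 0.73).

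**Figure D3:**
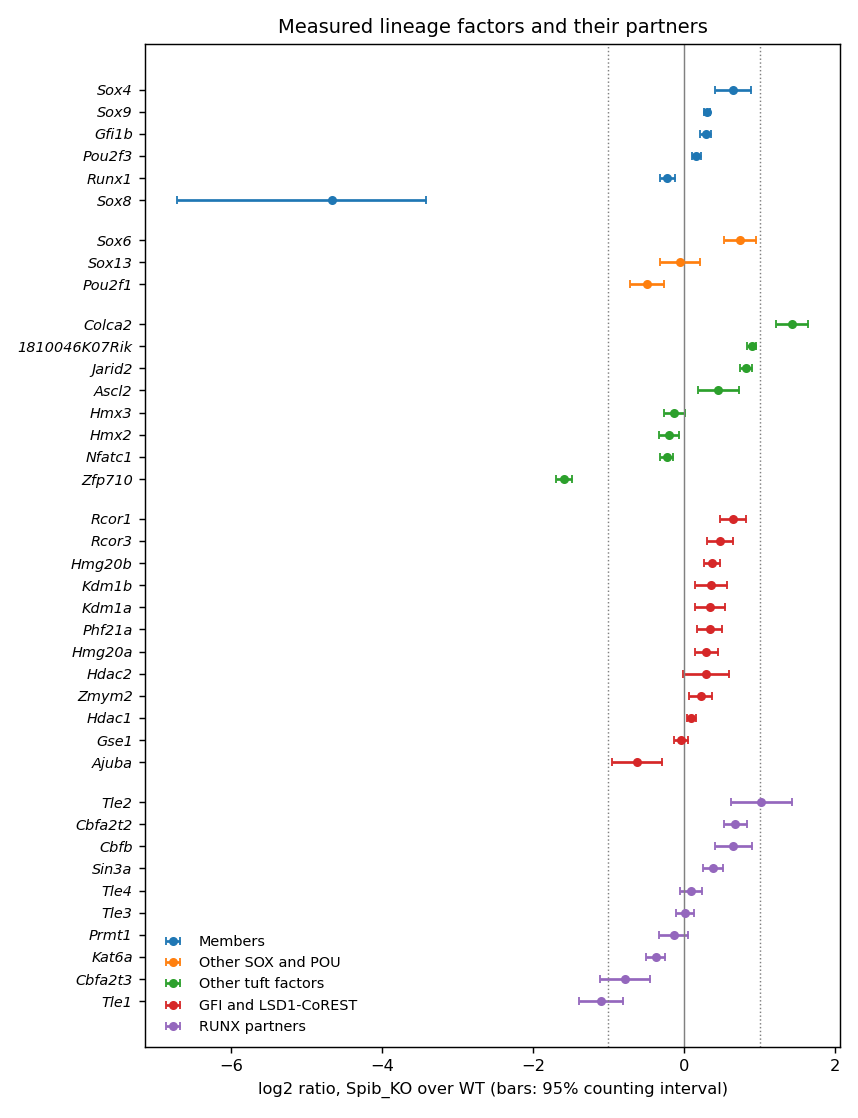
Log2 ratio of Spib_KO over WT for the measured members and related factors, grouped by colour, with 95% counting intervals; dotted lines mark a 2-fold difference. Sox8 at -4.65 and Zfp710 at -1.59 lie wholly below the lower line, Colca2 at 1.43 wholly above the upper line, and the other genes shown do not clear either line.

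Factors of other epithelial lineages had few calls, too few in either list to set it apart, and each was lower in Spib_KO. Of 14 measured secretory and enteroendocrine factors 1 was lower (7.14%, beside 2.18% of all measured genes) and 0 higher. Of the 14, 10 lay below 0, with a median log2 ratio of -0.36. Without the filter 2 secretory factors were higher and 2 lower, so the single direction of this list depended on the filter. The lower gene was Foxa3, a goblet cell factor, with 238 and 75 reads and a log2 ratio of -1.59 (-1.99 to -1.22). Atoh1, which specifies secretory cells, had 98 and 45 reads, for a log2 ratio of -1.05 (-1.60 to -0.53) that was not called. Foxa3 and Atoh1 both passed the filter only through the WT library, so their direction was set in part by the filter. The most abundant of this list were Xbp1 and Klf4, with ratios of -0.38 and 0.08. Prox1, a homeobox factor, had 50.8 and 23.1 CPM, a ratio of -1.14 (-1.31 to -0.96) that fell just short of a call. These counts stand beside the lower goblet and Paneth cell markers given above, whose part in them was not tested.

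Of 31 measured absorptive and regional factors 2 were lower (6.45%, beside the same 2.18%) and 0 higher, with a median log2 ratio of -0.13. Both lower genes were grainyhead factors of epithelial barriers. Grhl2 had 517 and 207 reads, for a log2 ratio of -1.25 (-1.49 to -1.02), and Grhl3 had 127 and 21, a ratio of -2.50 (-3.27 to -1.85). Of the 31, 3 passed the filter only through the WT library, Grhl3 among them, so the direction of these 3 was set in part by the filter. The ETS family gene Elf3 was the most abundant factor of all those listed, with 1120 and 999.7 CPM, a ratio of -0.16, and its relative Ehf had 333 and 493 CPM, a ratio of 0.57 (0.52 to 0.61). Cdx2 and Hnf4a, which set intestinal identity, had ratios of -0.42 and -0.38.

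By TPM, the order of the members in WT was Sox9 with 179.6, Pou2f3 with 128, Gfi1b with 124, Runx1 with 24.1, Sox4 with 3.78 and Sox8 with 2.98. The counting intervals of Pou2f3 and Gfi1b overlapped, as did those of Sox4 and Sox8, so these neighbours were not separated. In Spib_KO the order was Sox9 with 219, Gfi1b with 148, Pou2f3 with 142, Runx1 with 20.2, Sox4 with 5.89 and Sox8 with 0.10. Gfi1b and Pou2f3 again overlapped, and here Sox4 and Sox8 did not. Among the 156 factors of all lists in the table, Sox9 ranked 2 in each library, behind Elf3, and Pou2f3 ranked 6 in each. Gfi1b ranked 8 in WT and 4 in Spib_KO, and Sox8 ranked 80 and 119. These ranks leave out the OCA-T genes; with both counted under their older symbols, 1810046K07Rik ranked 2 of 158 in each library, Sox9 ranked 3 and Pou2f3 ranked 7.

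The factors with levels most like each member were found by distance in the plane of log2 CPM in WT and in Spib_KO, which rests on these 2 libraries only. Klf6, Hnf4g and Tcf7l2 lay nearest to Pou2f3, at distances of 0.11 to 0.29. Klf5, Jarid2 and Hdac1 lay nearest to Gfi1b, at 0.28 to 0.64. St18, Gse1 and Irf8 lay nearest to Runx1, at 0.11 to 0.28. Cbfb, Tox3 and Tead1 lay nearest to Sox4, at 0.092 to 0.24. Sox9 had no listed factor closer than Ehf, at 0.89. Sox8 was the most isolated, with Grhl3 at 2.26 and Atoh1 at 3.35.

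**Figure D4:**
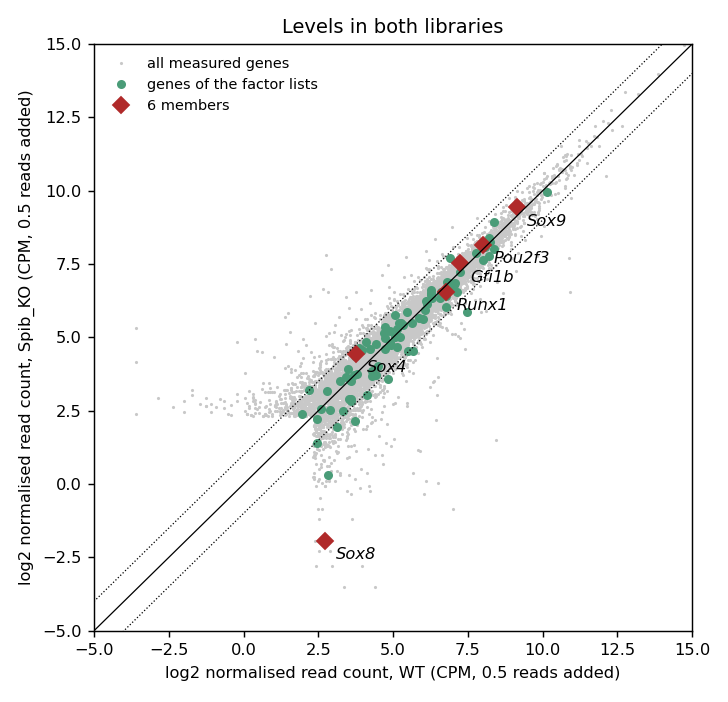
Log2 normalised read count (CPM with 0.5 reads added) in WT and Spib_KO for all measured genes (grey), genes of the factor lists (green) and the 6 members (red diamonds); the solid line marks equal levels and the dotted lines a 2-fold difference. All members but Sox8 lie between the dotted lines, and Sox8 lies far below them.

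The deposited values also carry an effective length behind each gene's count, since FPKM divides reads by length. This implied length is not the transcript length itself. Sox9 and Sox4 each have 1 annotated transcript, of 4135 and 4795 bases, longer than the implied values. The implied length of Sox9 was 3925 bases in WT and 3944 in Spib_KO, of Pou2f3 2514 and 2533, of Gfi1b 1531 and 1551, of Sox4 4559 and 4576, and of Runx1 5681 and 5783. The log2 ratios of these lengths ran from 0.005 for Sox4 to 0.026 for Runx1. Over 5711 genes with at least 500 reads in each library the median was 0.012, with a central range from -0.040 (5th percentile) to 0.096 (95th percentile), and all 5 lay inside it. For Runx1, whose annotated coding transcripts include forms of 5861 and 4738 bases, the implied length was close to the longer form in both libraries. With 4 reads in Spib_KO, no length could be read for Sox8.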

How the data were processed

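RNA was extracted with TRIzol and amplified by a SMART-Seq2 type method before transposase-based library construction, per the labels' protocols; no molecular identifiers are named. Per the submitters' processing notes, the tools were Bowtie2 2.2.3 and HISAT and the build mm10. The counting program is not given in the sources used here. The deposited read counts are expected counts, of which 19.0% in WT and 18.6% in Spib_KO were not whole, and they were rounded. The deposited TPM values were used for levels per length, and the deposited FPKM values for implied length (reads divided by FPKM and the library total) and as an alternative.

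Counts were scaled with TMM factors (edgeR 4.0.16, R 4.3.3) giving effective totals of 17996059 (WT) and 17161039 (Spib_KO). Log2 ratios of counts used a prior count of 0.5. Ratios of TPM and FPKM had 1 added to each value. For these units genes with 5 or more in either library were kept, and calls used the point estimate. Intervals were exact conditional binomial (Clopper-Pearson) for ratios and exact Poisson for levels, at 95%, and cover counting error only, since amplified reads are not independent molecules. Scipy 1.17.1, pandas 2.3.3, numpy 2.4.6 and matplotlib 3.10.9 were run under Python 3.11.15. The procedure was tested on simulated data.

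The members, lists and rules were chosen with earlier results of these data known. Genes were named by a rule: the members, the measured genes of their families, up to 4 called and the 2 most abundant genes of each factor list, the 3 nearest factors to each member, label checks and overlapping genes. Other genes named, among them the OCA-T genes, Gfi1, Pou2f2, Pou2af1, Sox10, the neighbours on the chromosome, single markers and uncalled list members, were chosen after their values were seen. Some genes that the rule names are not reported here. Coordinates and upstream windows are from RefSeq (GRCm38.p6, the assembly of mm10), and overlaps and transcript lengths from GENCODE M21. Alternatives were other scalings (DESeq2 1.42.0 size factors, total counts, upper quartile and, added after seeing the data, the tuft markers), a prior count of 5, TPM, FPKM, other filters, the point estimate and thinning of the deeper library.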

Additional observations from a re-analysis of the deposited data

How the results depend on the processing

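The log2 ratios of all 6 members kept their direction under every alternative run. On counts they ranged from 0.080 to 0.17 for Pou2f3, 0.20 to 0.30 for Gfi1b, 0.57 to 0.66 for Sox4, 0.22 to 0.31 for Sox9, -0.31 to -0.21 for Runx1 and -4.74 to -3.72 for Sox8. Sox8 was no longer called with a CPM minimum of 20 (-4.65), TPM (-1.86) or FPKM (-1.64), since its level is under those minimums, so 0 members and 0 SOX genes were then lower. The TPM and FPKM ratios have 1 added to each value, which draws ratios of low levels such as Sox8 toward 0. Without a filter 2 SOX genes were lower. Over all measured genes 250 were higher and 233 lower. These became 595 and 716 without a filter, 101 and 106 with a CPM minimum of 20, and 425 and 419 by the point estimate, rules that admit other numbers of genes. With FPKM, where the filter and the calling rule also differ, 165 were higher, and the part of each was not tested. List medians near 0 changed sign. The tuft factors went to -0.036 with FPKM. The POU genes went to 0.15 with TPM and 0.14 with FPKM, which are the values of Pou2f3 itself in those units, and to 0.065 without a filter. The RUNX list went to -0.061 without a filter and -0.072 when scaled on tuft markers. The causes were not otherwise tested. Without a filter 2 secretory factors were higher and 2 lower, and 1 haematopoietic factor was higher and 3 lower. Secretory factors had 0 lower with a CPM minimum of 20, 3 by the point estimate and 2 when scaled on tuft markers. Absorptive factors had 1 lower with TPM, FPKM and a CPM minimum of 20, and by the point estimate the RUNX list had 1 higher and 1 lower. Scaling on tuft markers moved the median ratio over measured genes by -0.086. The haematopoietic median of -0.029 was -0.23 without a filter, -0.20 with a CPM minimum of 20, -0.18 with TPM and -0.22 with FPKM. No paired analysis was possible because each genotype has 1 library, and for the same reason no library could be left out. Depth limits Sox8 most, at 4 reads in Spib_KO.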

Other observations

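The implied length differed between the libraries for some related factors, which moves their TPM apart from their read counts. For Hmx3, a homeobox factor of tuft cells, the implied length was 2100 bases in WT and 2826 in Spib_KO, with a log2 ratio of lengths of 0.43, above the 95th percentile of 0.096. Its CPM was 49.4 and 45.2, while its TPM was 29.7 and 20.1. For Sox6 the length was 6810 and 5427 bases, a log2 ratio of -0.33, below the 5th percentile of -0.040, and its TPM was 3.17 and 6.62. For Tle1, the Groucho-type corepressor, it was 4463 and 2892 bases, and for Zmym2, a zinc finger partner of LSD1, 4395 and 6096 bases. These are single values per library, and which transcripts were present was not analysed here.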
